A study of Mus musculus with 93 samples.

Results

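The genes described here lie on mouse chromosome 10 with their midpoint between 80 and 90 Mb (GRCm38, GENCODE M21). They had at least 10 counts in at least 10% of the 93 mice. Of 231 annotated genes in the window 191 had enough counts, 40 did not, and 6 of the 191 were left out by symbol (Atp5d, Ndufs7, Rps15, Uqcr11, Pmch and Slc17a8). The remaining 185 are called the members, out of 23702 genes tested. They comprise 154 protein-coding genes, 13 antisense genes, 4 lincRNA genes and 14 of other types. The members were chosen by 2 contrasts measured in these mice, the APP/PS1 difference from WT within each strain along the chromosome and the WT difference of PWK from B6. Values from both contrasts are therefore given as a description, without a test of the members as a set.

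RNA was sequenced from the left brain hemisphere of 93 mice aged 8 months, in 4 inbred strains. B6 is the usual laboratory strain, and CAST, WSB and PWK are wild-derived strains. APP/PS1 mice carry the transgenes APPswe and PSEN1dE9, brought from B6 into the wild-derived strains by repeated backcrossing, and WT littermates carry neither. Libraries were prepared from poly-A RNA.

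Among B6 mice, 6 females and 6 males were WT, and 4 females and 6 males carried APP/PS1. The CAST and WSB mice were 6 of each genotype and sex. Among PWK mice, 5 females and 6 males were WT, and 6 females and 6 males carried APP/PS1. Per the paper, aggression led to single housing of the PWK APP/PS1 mice from 3 months of age, earlier than the other mice. In PWK, a difference between genotypes and one of housing therefore cannot be told apart. Each mouse gave between 53969802 and 106016200 counts on genes, with a median of 66559575. Judged by the numbers in the library identifiers, since no label names a batch, the B6 libraries stand apart from those of the wild-derived mice, which fall into 3 pools, so a strain difference from B6 and a difference of library preparation cannot be told apart.

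Levels are given as CPM, the counts of a gene scaled to a common library size, and differences on the log2 scale. A gene passes the threshold when its adjusted p is under 0.05 over all 23702 genes. App, whose counts include reads of the transgene, checked the genotype labels. Its level in PWK was 1380 to 1610 CPM in the WT mice (median 1470) and 3150 to 3520 CPM in the APP/PS1 mice (median 3300). The genotypes did not overlap. Neuron markers summed to 4990 to 5470 CPM in PWK WT mice and Snap25 was the most abundant of them. Of 2 liver markers listed, 1 was tested, Apoa2, with a median of 0.0126 CPM in PWK WT mice. Its median was 0.0143 CPM in WSB WT, 0.398 in B6 WT and 0.403 in CAST WT mice, so its level depends on strain.

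Genes that neighbour each other on a chromosome are inherited together, so a stretch of DNA can differ between strains as a block. In backcrossing, offspring that carry the transgene are mated to the recipient strain over and over. Brain RNA levels of many genes differ between inbred strains, and the window holds genes of unrelated roles, from endosomal adaptors and transcription factors to a fusion-protein relative.

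In PWK, 16 of the 185 members differed between APP/PS1 and WT mice past the threshold, where 2.04% of all genes did. Of these 16, 4 were higher and 12 were lower in APP/PS1 mice. An unadjusted p under 0.05 was found in 56 members and in 12.0% of all genes, and DESeq2 gave 18 members and 567 of all genes. With the PWK mice fitted alone 7 members and 451 of all 23702 genes passed; 6 of the 7 were among the 16 (Mybpc1, Appl2, Tle2, Btbd11, Nfic and Prdm4), and the other 10 of the 16 did not pass. The 16 lie from Izumo4 at 80.7 Mb to Mybpc1 at 88.56 Mb, and 15 of the 16 are protein coding. The median absolute difference was 0.085 over the members and 0.069 over all genes. In B6 no member passed with edgeR (0 of 185, against 0.224% of all genes), and 8 had an unadjusted p under 0.05 (5.61% of all genes). DESeq2 gave 0 members and 70 of all genes in B6. In CAST 1 member passed (0.658% of all genes), and 20 had an unadjusted p under 0.05 (7.8% of all genes). DESeq2 gave 2 members and 187 of all genes in CAST. In WSB 0 passed with edgeR (0.375% of all genes), and 16 had an unadjusted p under 0.05 (7.7% of all genes). DESeq2 gave 0 members and 137 of all genes in WSB. The choice of members used these responses, so the next counts are a description. With edgeR, the PWK response differed past the threshold from that in B6 in 3 members (0.224% of all genes). It differed from that in CAST in 2 (0.228%) and from that in WSB in 1 (0.422%). DESeq2 gave 4, 3 and 4 members in the same order, so the WSB count depends on the method. The DESeq2 counts have no share of all genes beside them, and nothing is read from them.

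**Figure D1:**
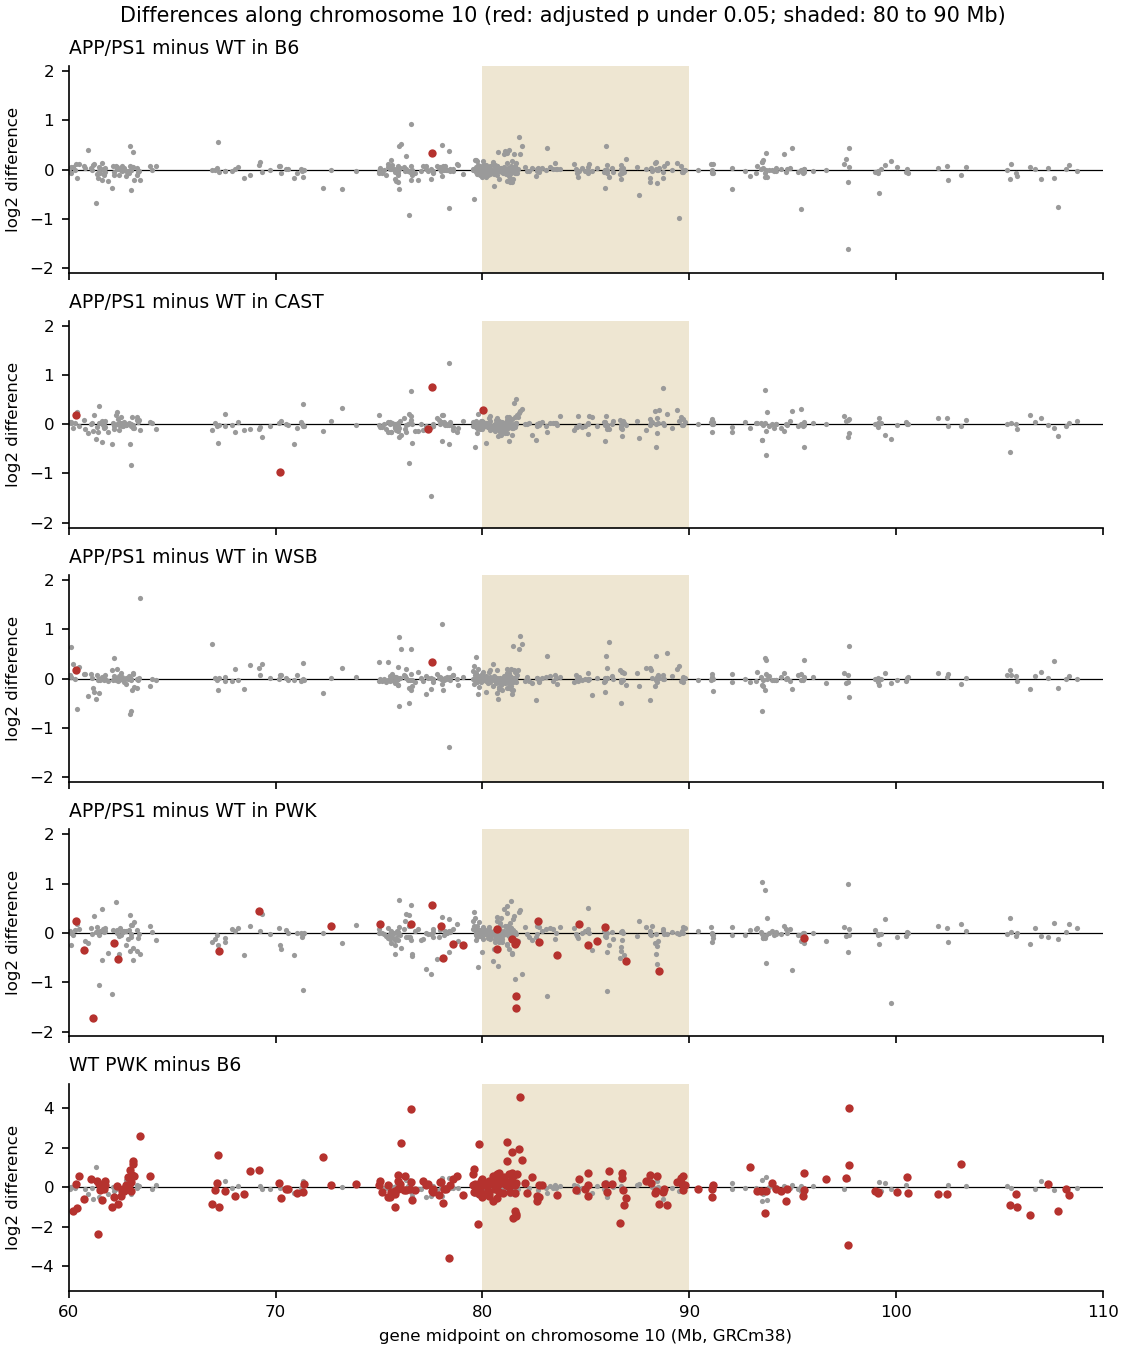
Each point is a gene tested on chromosome 10, placed by its midpoint in Mb (horizontal axis) and its log2 difference (vertical axis), for APP/PS1 minus WT in each strain and for WT PWK minus B6; red points pass the threshold and the shaded band is the window. Among the 4 strains, 16 members are red in PWK, 1 in CAST, and 0 in B6 and WSB.

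The flanks of the window were as follows in PWK. At 60 to 70 Mb 7 of 82 tested genes passed, at 70 to 80 Mb 8 of 123, and at 90 to 100 Mb 1 of 56. Further off, 2 of 51 passed at 30 to 40 Mb, 3 of 58 at 40 to 50 Mb and 2 of 42 at 50 to 60 Mb, beside 2.04% of all genes. In B6, CAST and WSB, 0, 1 and 1 genes passed at 60 to 70 Mb, and 1, 3 and 1 at 70 to 80 Mb. Itgb2, at 77.5 Mb, passed in all 4 strains, so not every flank gene that passed did so in PWK alone. The members just inside the lower border were Abca7, a lipid transporter, with a PWK difference of -0.12, Arhgap45 with 0.12, and Polr2e, an RNA polymerase subunit, with 0.02. Just outside it, Cnn2 had -0.05, Tmem259 -0.06 and Grin3b -0.38. Inside the upper border, Uhrf1bp1l had 0.09, Actr6 0.01 and 1500026H17Rik 0.12. Outside it, Anks1b had 0.03, Apaf1 0.12 and Ikbip 0.01. The WT PWK minus B6 differences of these border genes ran from -0.50 in Cnn2 to 0.55 in 1500026H17Rik.

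Among the signalling genes, the adaptor protein of endosomes Appl2 is given first. It lies at 83600033 to 83648738 on the minus strand. The 5 PWK WT females had 131, 132, 89.2, 125 and 134 CPM, in the order of their numbers. The PWK WT males had 96.1 to 178 CPM. The PWK APP/PS1 mice had 80.4 to 122 CPM with a median of 87.3, so the 2 genotypes overlap: WT female 3 and WT male 6 lie among the APP/PS1 mice, and APP/PS1 female 6, male 5 and male 6 lie close to the WT mice. In WT mice of the other strains the median was 170 CPM in B6, 162 in WSB and 96.1 in CAST. The log2 difference of Appl2 in PWK was -0.44 (SE 0.06), and that of WT PWK from B6 was -0.39 (SE 0.06). Of the 19 signalling members, Appl2 was the one that passed in PWK, where 2.04% of all genes did.

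Mybpc1, a myosin-binding protein of slow muscle that is low in brain, lies at 88518279 to 88605152 on the minus strand. The PWK WT females had 9.47, 8.85, 3.64, 9.44 and 11.9 CPM, and the WT males 3.84 to 13.3 CPM. The PWK APP/PS1 mice had 3.16 to 8.05 CPM with a median of 4.28. WT female 3 and WT male 6 were again the lowest WT mice, and APP/PS1 female 6 was the highest of its genotype. B6 WT mice had a median of 15.1 CPM, WSB WT mice 5.31 and CAST WT mice 2.63. The difference in PWK was -0.78 (SE 0.14).

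The transcription list had 3 of 22 members past the threshold in PWK (2.04% of all genes), all lower in APP/PS1 mice. Nfyb codes for a subunit of the CCAAT-binding factor NF-Y, and its level was 21.8 to 30.6 CPM in PWK WT mice and 20.3 to 28.7 CPM in PWK APP/PS1 mice. The groups overlap, with medians of 27.3 and 22.1 CPM. Tle2, a corepressor of the Groucho family, ran from 30.2 to 49.8 CPM in WT and from 29.2 to 38.1 CPM in APP/PS1 mice. Nfic, a nuclear factor I protein, ran from 182 to 218 CPM in WT and from 168 to 202 CPM in APP/PS1 mice. For Tle2 and Nfic, too, the genotypes overlap.

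Polr3b, a core subunit of RNA polymerase III, was the 1 member of 11 in the RNA list that passed (2.04% of all genes). It was higher in APP/PS1 mice: its median was 29.8 CPM in PWK WT and 34.1 CPM in PWK APP/PS1 mice. Among genes of endoplasmic reticulum, Golgi, lysosome and lipids, 2 of 16 passed (2.04% of all genes). Ap3d1, a subunit of the AP-3 sorting complex, had a median of 211 CPM in WT and 223 CPM in APP/PS1 mice. Stab2, a hyaluronan scavenger receptor, had medians of 0.825 and 0.574 CPM. The neuron and synapse list had 0 of 9 past the threshold with edgeR, and the redox and metabolism list 0 of 10. These counts stand beside 2.04% of all genes. The matrix list had 1 of 4, Mybpc1, the myosin-binding protein described above.

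The members outside the lists included Izumo4, of the family of sperm-egg fusion proteins. It had 7.99 to 15.3 CPM in PWK WT mice and 7.16 to 15.8 CPM in PWK APP/PS1 mice, with WT female 3 the lowest WT mouse. Btbd11, a BTB domain protein, had medians of 48.9 and 44.0 CPM. Mterf2, of the mitochondrial transcription termination factor family, had medians of 10.6 and 8.41 CPM. Ankrd24 was lower (-0.18), Glt8d2 higher (0.25) and Prdm4 higher (0.11) in APP/PS1 mice.

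BC025920 and Gm26896, which overlap by 3424 bases on opposite strands, were chosen after their values were seen, as was Stab2; all 3 average under 1 CPM. BC025920 had 0.115 to 0.671 CPM in PWK WT mice and 0 to 0.70 CPM in PWK APP/PS1 mice, with medians of 0.47 and 0.0474. In APP/PS1 female 6, male 5 and male 6 it was 0.541, 0.70 and 0.677 CPM, and in the other APP/PS1 mice at most 0.0729. Since the strand used in counting is not stated, reads of overlapping partners cannot be told apart. Of the members, 76 overlap another tested gene, among them 8 of the 16.

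**Figure D2:**
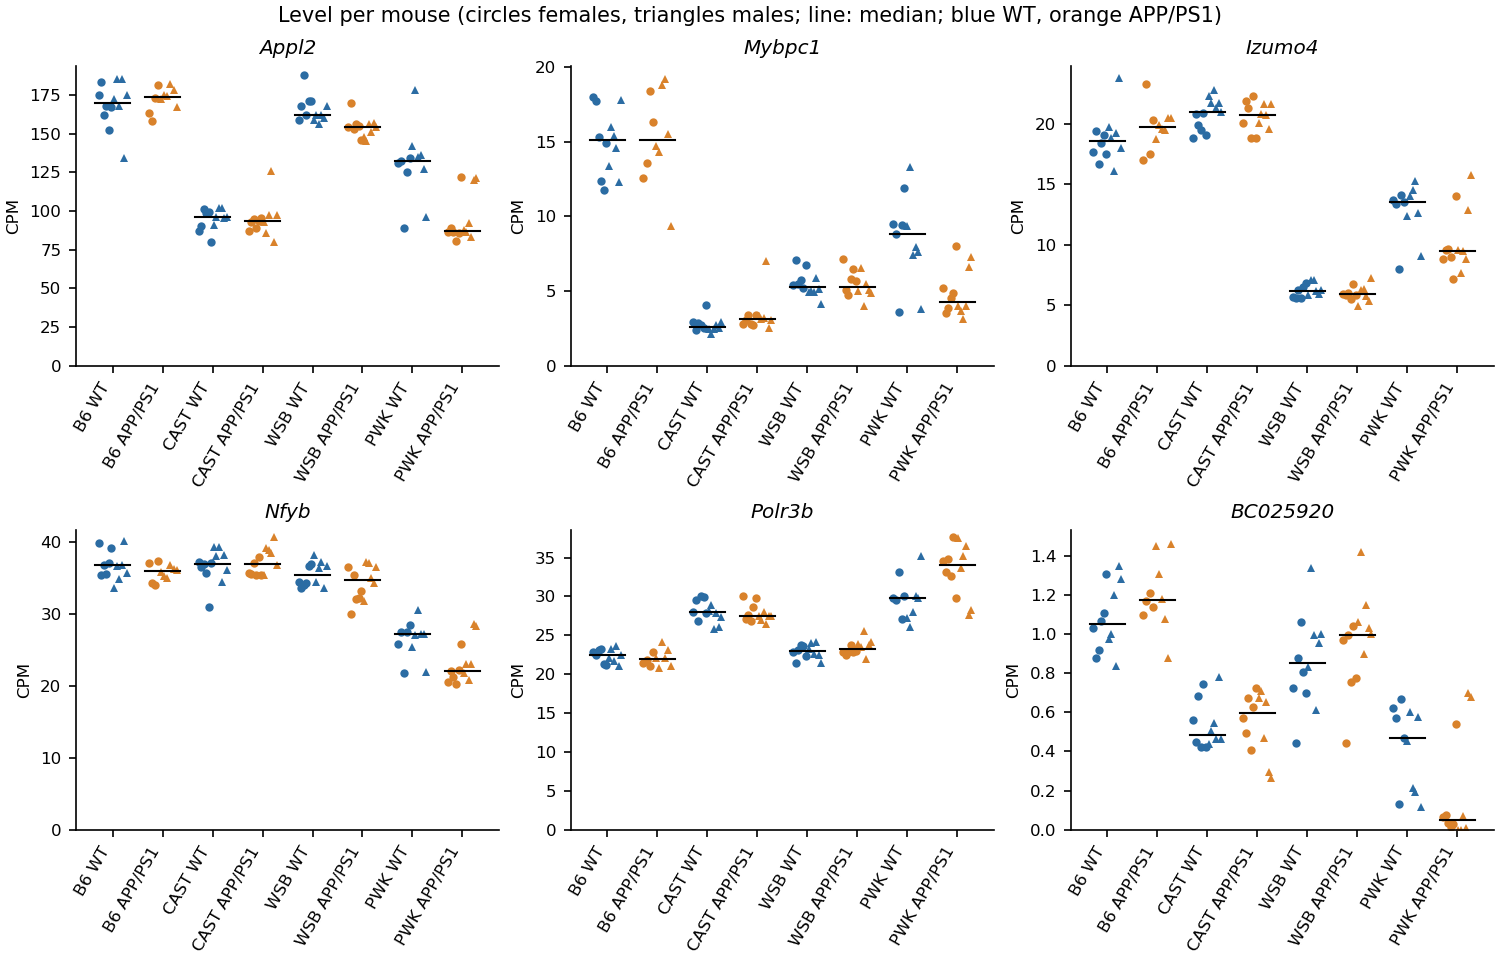
Level in CPM (vertical axis, from 0) of Appl2, Mybpc1, Izumo4, Nfyb, Polr3b and BC025920 in each mouse by strain and genotype (horizontal axis), with circles for females, triangles for males and a line at the median. In PWK a few mice of each genotype lie among the other genotype, as in Appl2, where WT runs from 89.2 to 178 CPM and APP/PS1 from 80.4 to 122 CPM.

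The single mice that stand apart recur across members. For each of the 16 members a mouse was placed on the side of the PWK APP/PS1 mean or of the PWK WT mean, split at the midpoint of the 2 means, which the same mice set. WT female 3 lay on the APP/PS1 side in 11 of the 16 and WT male 6 in 12, whereas each of the other WT mice did so in 0 to 3. APP/PS1 female 6 lay on the APP/PS1 side in 5, male 5 in 4 and male 6 in 3, whereas each of the other APP/PS1 mice did so in 14 to 16. These 5 mice came from 3 library pools. For the 7 genes past the threshold at 60 to 70 Mb, WT female 3 lay on the APP/PS1 side in 6 and WT male 6 in 5, and APP/PS1 female 6, male 5 and male 6 in 1, 0 and 0. For the 8 genes at 70 to 80 Mb, WT female 3 lay there in 5, WT male 6 in 3 and WT male 4 also in 3, and APP/PS1 female 6, male 5 and male 6 in 3, 3 and 2. On chromosome 9 from 100 Mb to its end, where 40 of 387 tested genes passed in PWK, the same 5 mice lay on the APP/PS1 side in 1, 5, 36, 24 and 37 of 40. What sets these mice apart was not tested.

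**Figure D3:**
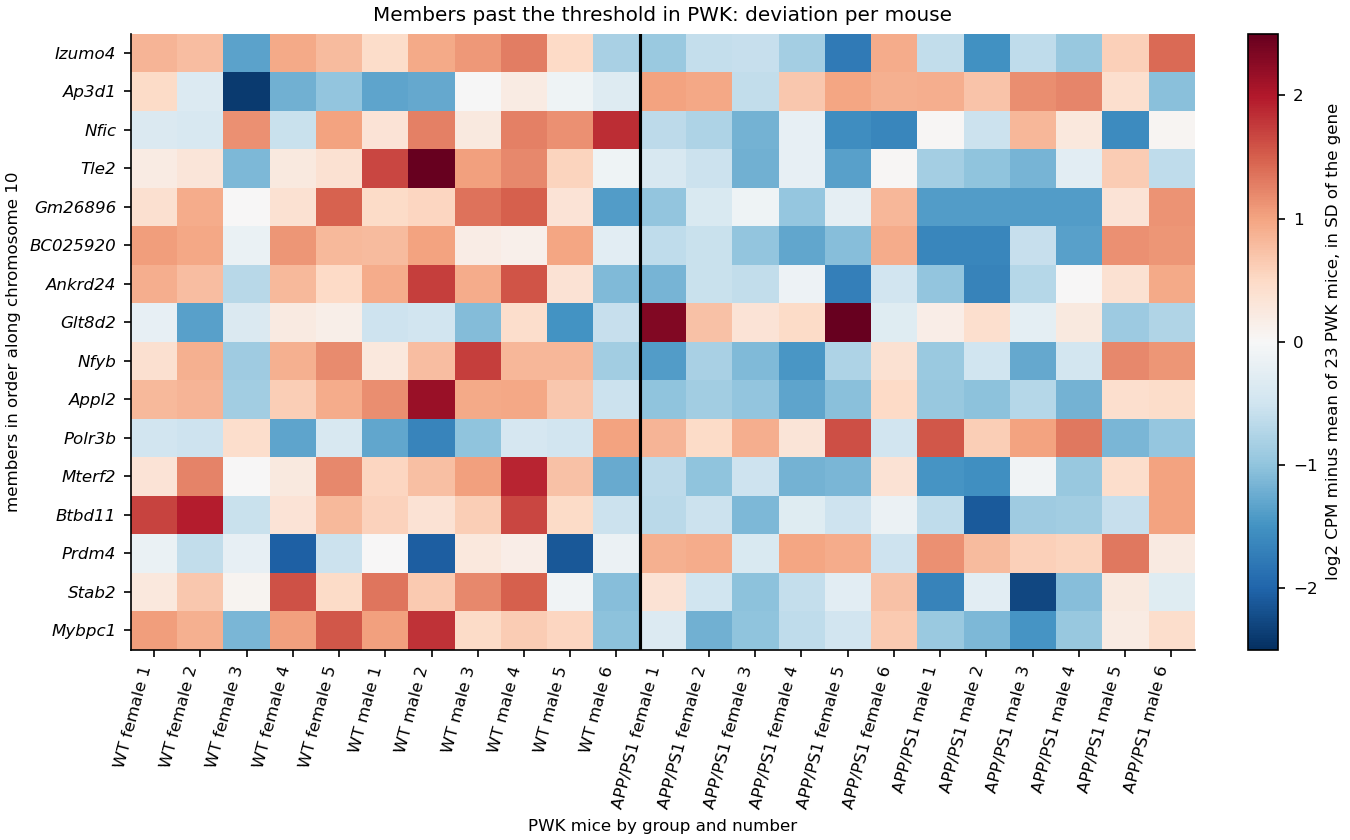
Deviation of each PWK mouse (columns) from the mean of the 23 PWK mice, in SD of the gene, for the 16 members past the threshold (rows, in chromosome order), red higher and blue lower. WT female 3 and WT male 6 lie on the APP/PS1 side in 11 and 12 of the 16 members, and APP/PS1 female 6, male 5 and male 6 in 5, 4 and 3.

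In the WT PWK minus B6 contrast 99 members passed, 64 higher and 35 lower in PWK, beside 59.2% of all genes. This contrast and APP/PS1 minus WT in PWK share the PWK WT mice, so no overlap between them is given as a result. Side by side, BC025920 had -1.27 between genotypes in PWK and -1.36 between strains, and Gm26896 -1.52 and -1.47. Izumo4 had -0.33 and -0.55, Nfyb -0.19 and -0.48, Polr3b 0.17 and 0.41, and Mterf2 -0.25 and -0.43. The same sign in both places the PWK APP/PS1 mice further from the B6 WT mice than the PWK WT mice were. Nfic had -0.13 and 0.20, Glt8d2 0.25 and -0.14, and Btbd11 -0.17 and 0.06, with opposite signs.

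The WT PWK minus B6 differences of all 185 members ran from -1.83 to 4.57. The highest was that of Gm4767, which averaged 1.29 CPM in PWK WT and 0.055 CPM in B6 WT mice. It falls under a mean of 1 CPM over all mice. Among members with at least that mean, the largest differences that passed were Mybpc1 (-0.83), Amh, anti-Müllerian hormone (0.75), Gm26541 (0.69) and Tdg, a DNA repair glycosylase (-0.68). Next came Gm16105 (0.56), Izumo4 (-0.55), 1500026H17Rik (0.55) and Gm4924 (0.50). Tdg had a median of 27.5 CPM in B6 WT, 16.7 in PWK WT, 14.0 in WSB WT and 22.5 CPM in CAST WT mice. The genes with the highest level per kb of exon were Eef2, a translation elongation factor (350 CPM per kb), Aes, a short Groucho relative (83.8), Gpx4, an enzyme that reduces lipid peroxides (73.0), Pip5k1c, a phosphoinositide kinase (67.7), and Hsp90b1, a chaperone of the endoplasmic reticulum (63.4). None of these 5 passed in any APP/PS1 contrast with edgeR.

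Taking APP/PS1 minus WT in one sex and WT PWK minus B6 in the other gives pairs of values that share no mouse. Across the 185 members the Pearson correlation was 0.305 for APP/PS1 females with WT males and 0.329 for APP/PS1 males with WT females (Spearman 0.247 and 0.148). Across all 23702 genes the values were -0.051 and -0.05. On the flanks they were 0.503 and 0.018 at 70 to 80 Mb (123 genes; Spearman 0.454 and 0.338), and 0.039 and 0.022 at 90 to 100 Mb (56 genes; Spearman 0.093 and -0.006). Both contrasts were used to choose the members and genes are not independent replicates, so these values are descriptions and nothing is read from them. With females alone, 6 members passed in PWK (0.928% of all genes). The count was 2 to 7 (164 to 192 of all genes) when 1 of the PWK WT females was left out, and 1 (179 of all genes) with the PWK mice fitted alone. With males alone, 3 members passed (0.675%), and 1 (128 of all genes) with the PWK mice fitted alone. WT PWK minus B6 gave 71 members in females (44.4% of all genes) and 69 in males (48.1%).

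**Figure D4:**
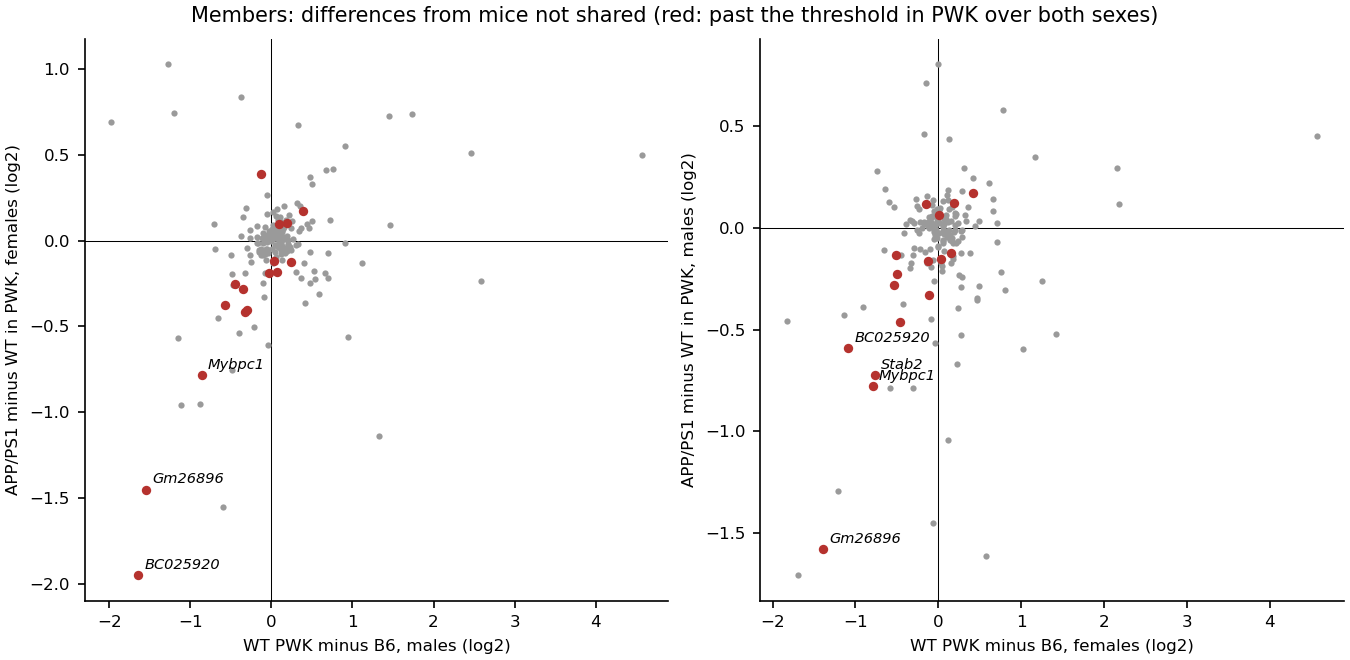
Each point is a member, placed by its WT PWK minus B6 difference in one sex (horizontal axis, log2) and its APP/PS1 minus WT difference in PWK in the other sex (vertical axis, log2); red points pass the threshold in PWK over both sexes. The correlation across the 185 members is 0.305 in the left panel and 0.329 in the right.

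The choice of members does not name 5 other contrasts between WT mice, which were tested; they reuse WT mice of the contrasts that it names. Between WT CAST and B6 mice 105 members passed (61.4% of all genes), between WT WSB and B6 87 (47.5%), between WT CAST and PWK 82 (54.8%), between WT WSB and PWK 87 (54.5%) and between WT CAST and WSB 95 (54.2%). The shares of members were 56.8%, 47.0%, 44.3%, 47.0% and 51.4% in the same order.

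WT CAST minus WSB shares no mouse with APP/PS1 minus WT in PWK. Appl2 was lower in CAST than in WSB by -0.80 (SE 0.06, edgeR adjusted p = 1e-20), and Mybpc1 by -0.997 (SE 0.14, edgeR adjusted p = 4.07e-09). The contrasts of CAST and WSB with PWK reuse the PWK WT mice, so no overlap of the 16 with them is given. Nfyb was higher in CAST than in PWK by 0.47 and in WSB than in PWK by 0.43. Btbd11 passed in none of the 5 strain contrasts tested.

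Of the 9 neuron and synapse genes, 7 differed between WT CAST and PWK (54.8% of all genes), 4 between WSB and PWK (54.5%), 5 between CAST and WSB (54.2%), and 6 each in CAST and WSB against B6 (61.4% and 47.5%). Of the 10 redox and metabolism genes, 5, 4 and 3 differed in the first 3 of these contrasts, and 7 and 3 in CAST and WSB against B6. Adamtsl5, counted among the 9 neuron and synapse genes, is also on the matrix list. It passed in CAST against PWK, WSB and B6, and in WSB against B6. 1500026H17Rik, annotated as a noncoding RNA at a bidirectional promoter, was higher in CAST than in B6 by 2.16 (SE 0.09), with 11.3 to 13.0 CPM against 2.22 to 3.40 CPM and no overlap. Izumo4 was lower in WSB than in PWK by -1.03 (SE 0.08), with 5.59 to 7.13 CPM in WSB WT mice, below every PWK WT mouse.

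The female minus male difference of the PWK contrast had 0 members past the threshold with edgeR (0.00844% of all genes). It had 5 at an unadjusted p under 0.05 (4.38% of all genes), and DESeq2 gave 0 members and 4 of all genes. In WT mice of all strains, female minus male gave 1 member (0.456% of all genes) and 22 at an unadjusted p under 0.05 (12.0% of all genes). DESeq2 gave 4 members and 244 of all genes. The 1 member past the threshold with edgeR was Chst11, a chondroitin sulfotransferase, higher in females by 0.085 (SE 0.02).

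In CAST, Arhgap45 was higher in APP/PS1 mice, with 3.41 to 4.37 CPM in WT and 3.91 to 5.81 CPM in APP/PS1 mice, and the groups overlap. Its difference was 0.29 (SE 0.08), and it did not pass with the replicate block or without the count filter.

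Of the 5 astrocyte markers 1, Gfap, was higher past the threshold in PWK APP/PS1 mice, and the other 4 had negative differences that did not pass (Aqp4 -0.143, Aldh1l1 -0.075, Slc1a3 -0.065 and Gja1 -0.047). Sums for the pituitary markers Gh, Prl and Pomc reached 513 CPM in 1 B6 and 633 CPM in 1 WSB APP/PS1 mouse, 92.4 CPM in 1 CAST WT mouse, and at most 10.1 CPM in PWK. The medians of the sums in PWK WT and APP/PS1 mice were 5260 and 5470 CPM for neurons, 1220 and 1210 for astrocytes, 3730 and 3460 for oligodendrocytes, 120 and 120 for endothelium, 349 and 351 for choroid plexus, and 40.6 and 30.2 for blood. In bulk tissue, fewer cells of a type and less RNA per cell cannot be told apart. The part of these markers in the members' differences was not tested.

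Since Nfyb codes for a subunit of the factor that binds CCAAT, promoter windows of 300 bases were searched for CCAAT on both strands, in RefSeq sequence of GRCm38.p6. Windows were found for 134 members, 182 windows in all. CCAAT was in 42.3% of them and in 37.4% of all 32851 windows, and in 6 of the 16 windows of the members past the threshold in PWK. Those 16 windows belong to 12 of the 16 members, and 4 of the 12 had a match. The palindrome bound by nuclear factor I, searched because of Nfic, was in 0 of the 182 windows and in 0.0365% of all. The windows of Ap3d1 and of Mterf2, which hold CCAAT or its reverse complement ATTGG in capitals, are shown as examples. A match is a description and no site of binding.
Ap3d1, chr10:80742226-80742525, minus strand: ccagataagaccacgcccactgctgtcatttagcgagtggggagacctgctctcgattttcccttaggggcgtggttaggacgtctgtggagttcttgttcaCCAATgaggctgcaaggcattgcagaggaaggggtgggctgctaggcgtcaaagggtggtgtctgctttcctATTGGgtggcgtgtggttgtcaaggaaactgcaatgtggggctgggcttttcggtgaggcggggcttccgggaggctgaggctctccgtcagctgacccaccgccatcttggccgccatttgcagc
Mterf2, chr10:85127966-85128265, minus strand: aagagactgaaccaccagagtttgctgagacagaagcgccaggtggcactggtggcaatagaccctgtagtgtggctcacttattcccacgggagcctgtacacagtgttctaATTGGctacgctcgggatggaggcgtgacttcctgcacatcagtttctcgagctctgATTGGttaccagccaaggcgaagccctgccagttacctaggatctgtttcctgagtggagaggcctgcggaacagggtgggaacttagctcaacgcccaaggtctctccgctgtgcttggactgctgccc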

How the data were processed

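The deposited values are raw counts of reads per Ensembl gene, 1 mouse per file. Per the methods, the authors trimmed reads with Trimmomatic, aligned them with STAR, for CAST, WSB and PWK to a copy of mm10 carrying that strain's known variants, and counted with HTSeq; versions and counting strand are not stated, the count files name no genome, and the part of mapping in strain differences was not tested. Counts were joined to GENCODE M21 and scaled with TMM in edgeR 4.0.16, and 16 group means of strain, genotype and sex were fitted by quasi-likelihood, with Benjamini-Hochberg adjustment over 23702 genes. log2 CPM used a prior count of 2. Other fits used DESeq2 1.42.0 or its size factors, no count filter, library pool, a replicate block, the compared strains alone, or each PWK mouse left out. The code was tested on simulated data. Named genes were the members with the largest differences that passed in PWK, those nearest the borders, those with the highest level per kb, and fixed role lists. Members and lists were chosen with earlier results of these data known. A further marker result is not reported here.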

Additional observations from a re-analysis of the deposited data

Results flagged for a closer look

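In 31 of 384 tested combinations of a gene and a group of mice, 1 mouse stood apart. Its gap to the nearest mouse, as a share of the range of the group, was above the critical value for that group size. Chance alone gives this in about 1 in 20 combinations. The same 16 groups of mice served for every gene, so the combinations are not independent.

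For Mybpc1, in CAST APP/PS1 male 4 the level was 7.04 CPM against 2.51 to 3.32 CPM in the others of the group (gap ratio 0.82). For Mybpc1 in CAST WT female 6 the level was 4.08 CPM against 2.42 to 2.94 CPM in the others of the group (gap ratio 0.686). For Mybpc1 in PWK APP/PS1 female 6 the level was 8.05 CPM against 3.57 to 5.19 CPM in the others of the group (gap ratio 0.638). For Appl2, in B6 WT male 5 the level was 134 CPM against 168 to 185 CPM in the others of the group (gap ratio 0.653). For Appl2 in PWK APP/PS1 female 6 the level was 122 CPM against 80.4 to 89.3 CPM in the others of the group (gap ratio 0.784). For Appl2 in PWK WT female 3 the level was 89.2 CPM against 125 to 134 CPM in the others of the group (gap ratio 0.796). For Izumo4, in PWK APP/PS1 female 6 the level was 14 CPM against 7.16 to 9.64 CPM in the others of the group (gap ratio 0.637). For Izumo4 in PWK WT female 3 the level was 7.99 CPM against 13.4 to 14.1 CPM in the others of the group (gap ratio 0.893). For Glt8d2, in WSB APP/PS1 male 4 the level was 9.15 CPM against 6.8 to 7.49 CPM in the others of the group (gap ratio 0.705). For Tle2, in PWK WT female 3 the level was 30.2 CPM against 36 to 36.9 CPM in the others of the group (gap ratio 0.873). For Nfyb, in CAST WT female 5 the level was 31 CPM against 35.7 to 37.3 CPM in the others of the group (gap ratio 0.748). For Nfyb in PWK APP/PS1 female 6 the level was 25.8 CPM against 20.3 to 22.2 CPM in the others of the group (gap ratio 0.654). For Ankrd24, in CAST WT male 1 the level was 44.6 CPM against 47.7 to 48.7 CPM in the others of the group (gap ratio 0.738). For Ankrd24 in PWK WT female 3 the level was 38.9 CPM against 44.2 to 46.2 CPM in the others of the group (gap ratio 0.728). For Btbd11, in B6 APP/PS1 male 4 the level was 42.6 CPM against 48.8 to 51.3 CPM in the others of the group (gap ratio 0.707). For Prdm4, in B6 WT male 4 the level was 34 CPM against 31.4 to 32.4 CPM in the others of the group (gap ratio 0.646). For Prdm4 in PWK WT female 4 the level was 33.8 CPM against 36.8 to 37.8 CPM in the others of the group (gap ratio 0.747). For Ap3d1, in CAST APP/PS1 male 6 the level was 222 CPM against 204 to 209 CPM in the others of the group (gap ratio 0.742). For Ap3d1 in PWK APP/PS1 female 3 the level was 209 CPM against 221 to 224 CPM in the others of the group (gap ratio 0.791). For Ap3d1 in PWK APP/PS1 male 6 the level was 205 CPM against 218 to 226 CPM in the others of the group (gap ratio 0.632). For Ap3d1 in WSB APP/PS1 male 6 the level was 187 CPM against 196 to 200 CPM in the others of the group (gap ratio 0.688). For Gm26896, in CAST WT male 3 the level was 0.382 CPM against 0.0633 to 0.159 CPM in the others of the group (gap ratio 0.7). For Gm26896 in PWK APP/PS1 female 6 the level was 0.185 CPM against 0.0126 to 0.0638 CPM in the others of the group (gap ratio 0.703). For BC025920, in CAST WT male 5 the level was 0.779 CPM against 0.439 to 0.548 CPM in the others of the group (gap ratio 0.678). For BC025920 in PWK APP/PS1 female 6 the level was 0.541 CPM against 0.0135 to 0.0729 CPM in the others of the group (gap ratio 0.887). For Gm16105, in B6 WT male 5 the level was 1.07 CPM against 1.62 to 1.89 CPM in the others of the group (gap ratio 0.67). For Gm16105 in CAST WT female 6 the level was 3.77 CPM against 2.09 to 2.66 CPM in the others of the group (gap ratio 0.66). For 1500026H17Rik, in B6 APP/PS1 female 4 the level was 2.98 CPM against 2.58 to 2.61 CPM in the others of the group (gap ratio 0.932). For Arhgap45, in CAST WT female 4 the level was 3.41 CPM against 4.05 to 4.35 CPM in the others of the group (gap ratio 0.684). For Chst11, in B6 APP/PS1 male 4 the level was 63 CPM against 68.1 to 69.7 CPM in the others of the group (gap ratio 0.763). For Chst11 in CAST APP/PS1 male 6 the level was 65.7 CPM against 70.2 to 72.7 CPM in the others of the group (gap ratio 0.645).

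The members were chosen by the response within each strain, so the following differences between strains are a description. The difference of the Appl2 response between strains, PWK minus B6, was -0.465 (log2, SE 0.09). The difference of the Tle2 response between strains, PWK minus B6, was -0.311 (log2, SE 0.07). The difference of the Mybpc1 response between strains, PWK minus B6, was -0.814 (log2, SE 0.196). The difference of the Mybpc1 response between strains, PWK minus CAST, was -1.078 (log2, SE 0.202). The difference of the Appl2 response between strains, PWK minus CAST, was -0.433 (log2, SE 0.088). The difference of the Mybpc1 response between strains, PWK minus WSB, was -0.79 (log2, SE 0.196). What sets these mice or strains apart was not tested.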

How the results depend on the processing

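The count of 16 members in PWK became 7 (451 of 23702 genes) when the compared strains alone were fitted, with 6 of them among the 16. It ran from 12 to 20, and the count over all genes from 372 to 561, with each of the 23 PWK mice left out in turn, 18 of these chosen after seeing the data. Of the 16, 9 kept the call with each PWK mouse left out and 4 (Appl2, Btbd11, Mybpc1 and Tle2) kept it in every alternative. With females alone, 6 (220 of all genes) became 1 (179) in the compared strains alone. The count became 2 to 7 (164 to 192 of all genes) with a PWK WT female left out (3 without female 1, 2 without female 2, 2 without female 4, 3 without female 5). With males alone, 3 (160 of all genes) became 1 (128). In CAST, the count of 1 (156 of all genes) became 0 with the replicate block (155). The CAST count became 0 without the count filter (140 of 40073 genes) and 2 with DESeq2 (187 of all genes). In WT females minus males, 1 (108 of all genes) became 4 with DESeq2 (244) and 2 with library pool as covariate (81). Causes of these shifts were not tested. None of the 16 members reversed its sign under the alternatives run on all pools. The main fit did not pair mice by replicate number. The mean correlation of deviations was 0.022 over 45 pairs with the same number and -0.004 over 225 with different numbers. Pairs with the same number ran from -0.296 to 0.307, with 15 above 0.1. A mean near 0 cannot show that no mice are paired. With the replicate block, 18 members passed in PWK (510 of all genes, against 483), 16 of them shared. Within the 3 pools inferred from identifiers, the PWK difference was -0.47, -0.42 and -0.54 for Appl2, -0.94, -0.63 and -0.80 for Mybpc1, and -0.04, 0.36 and 0.37 for Glt8d2. Members under 1 CPM are limited by depth. Strain differences from B6 and library preparation cannot be told apart, and the part of mapping to separate genomes was not tested.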
